A study of Mus musculus with 2 samples.

Results

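Heat shock protein genes were followed gene by gene across the cell types of RM-1 tumors. The set held 10 of the 32285 genes in the count tables, chosen by name: 7 inducible members (Hspa1a, Hspa1b, Hsph1, Hspb1, Dnajb1, Dnaja1 and Hsp90aa1) and 3 constitutive members (Hsp90ab1, Hspa8 and Hspd1). All 10 were found by symbol and all passed the minimum of 50 CPM (UMIs of a gene per 1000000 UMIs of the class) in at least 1 library of every class, so no member was lost to a filter. The names were chosen from earlier results on these libraries, in which heat shock genes differed between cell types and between libraries, so both patterns are given here as description. RM-1 is a mouse PCa cell line, used in the study as a model with natural ENZR, and was grown as an orthotopic tumor in the prostate of C57BL/6 mice labelled WT. ENZ (enzalutamide) is an androgen receptor inhibitor. scRNA-seq was performed on 1 tumor from a vehicle-treated mouse (control) and 1 from an ENZ-treated mouse, and immune cells were enriched during sorting in both. With 1 library per condition, the condition and the mouse cannot be told apart, and no test between conditions was possible.

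Heat shock proteins are chaperones that keep other proteins folded or refold them after damage. Under heat or other proteotoxic stress, the transcription factor HSF1 binds heat shock elements, repeats of a short motif in alternating orientation, and switches on the inducible members. The constitutive members work in unstressed cells as well, and the HSP90 pair is best known in the prostate for holding the androgen receptor in a form that can bind its ligand.

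The control library held 170830346 UMIs and the ENZ library 162030149. Of the barcodes with at least 1000 UMIs and at most 20% mitochondrial UMIs, 12253 control and 10271 ENZ barcodes were kept, with medians of 6376 and 8127 UMIs. The 2 libraries shared 40 barcodes among those with at least 1000 UMIs. Cells were gated by marker genes into 8 classes, and each class name stands for cells like that type. The gates held 827 control and 1129 ENZ cancer cells, 464 and 733 T cells, 520 and 249 NK cells, 1109 and 644 macrophages, 603 and 802 monocytes, 1214 and 437 neutrophils, 263 and 149 dendritic cells (DC), and 136 and 137 fibroblasts. Median depth ran from 2002 UMIs in control neutrophils to 29375 in control cancer cells. Barcodes that no gate took made up 56.5% of control and 57.2% of ENZ barcodes.

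The same markers set the gates, so their levels describe the classes and cannot test the class names. All markers of NK cells (9), macrophages (10), neutrophils (10), DC (11) and fibroblasts (11) were highest in their own class, as were 12 of 13 for T cells and 7 of 9 for monocytes. For the cancer gate the markers were weaker, with 5 of 10 highest there. Its leading marker, the epithelial keratin Krt8, stood at 848 CPM under vehicle and 814 CPM under ENZ, against at most 152 CPM in any other class. Cdh1, Epcam, Krt7, Meis2 and Pcdh9 were higher elsewhere, so only part of the list, led by Krt8, sets the cancer class apart.

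Hspa1a and Hspa1b encode near-identical stress-inducible HSP70 proteins, and the first question was whether their UMIs could be assigned. Both are single-exon genes on the minus strand of chromosome 17 (GRCm38), Hspa1a at chr17:34969190-34972156 and Hspa1b at chr17:34956436-34959238, with 9951 bases between them. Of all 90-base windows of the Hspa1a transcript, 49.3% also occur in Hspa1b. In the last 500 bases, where 3′ tag libraries read, the shared portion was 0% in both directions, so reads near the 3′ end carry differences between the copies, while reads farther upstream may not. Their promoters are also near-copies, alike at 296 of 300 bases. They are shown here with those of Hspb1 and Hspd1, since the first pair gave the widest differences between classes, Hspb1 was the inducible member highest in fibroblasts and cancer cells, and Hspd1 is a constitutive member. Each run covers 250 bases before to 50 after the start (RefSeq, GRCm38.p6), and capitals mark heat shock element letters, GAANNTTC or TTCNNGAA and the longer runs of 3 units, GAANNTTCNNGAA or TTCNNGAANNTTC, which read both strands and overlap where units repeat.
Hspa1a (chr17:34972107-34972406, minus strand): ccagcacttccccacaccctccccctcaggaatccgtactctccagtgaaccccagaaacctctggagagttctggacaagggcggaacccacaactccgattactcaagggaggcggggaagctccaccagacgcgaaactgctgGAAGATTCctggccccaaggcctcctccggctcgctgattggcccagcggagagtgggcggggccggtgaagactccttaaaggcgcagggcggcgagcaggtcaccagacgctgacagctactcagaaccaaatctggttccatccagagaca
Hspa1b (chr17:34959189-34959488, minus strand): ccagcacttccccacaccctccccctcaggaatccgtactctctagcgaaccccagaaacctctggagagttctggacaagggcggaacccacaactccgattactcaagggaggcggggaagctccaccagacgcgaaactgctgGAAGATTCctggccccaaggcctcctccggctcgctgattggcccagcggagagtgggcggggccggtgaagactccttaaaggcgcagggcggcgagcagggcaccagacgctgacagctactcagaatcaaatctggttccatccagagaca
Hspb1 (chr5:135887669-135887968, plus strand): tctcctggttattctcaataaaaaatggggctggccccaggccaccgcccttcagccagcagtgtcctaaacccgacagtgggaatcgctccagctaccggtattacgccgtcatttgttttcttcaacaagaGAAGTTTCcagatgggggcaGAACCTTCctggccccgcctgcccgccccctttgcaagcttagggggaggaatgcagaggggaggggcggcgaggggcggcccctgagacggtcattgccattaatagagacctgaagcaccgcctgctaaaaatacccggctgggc
Hspd1 (chr1:55087883-55088182, minus strand): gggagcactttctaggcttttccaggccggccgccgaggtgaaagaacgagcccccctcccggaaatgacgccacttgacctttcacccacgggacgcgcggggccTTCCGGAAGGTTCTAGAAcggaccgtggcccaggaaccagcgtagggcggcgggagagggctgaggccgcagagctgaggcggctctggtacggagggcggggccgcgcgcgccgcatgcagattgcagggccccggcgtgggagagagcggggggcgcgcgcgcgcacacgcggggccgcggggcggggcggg

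The motif of 2 units was in the same place in Hspa1a and Hspa1b, starting 104 bases before the start, and Hspb1 held it at 117 and 97 bases. Hspd1 held an overlapping run that began 144 bases before the start and contained both motifs of 3 units. RefSeq gives another, upstream start of Hspd1, and its window (chr1:55088194-55088493, minus strand) held no motif of either kind. That window spans the 5′ end of the annotated gene (chr1:55077835-55088243), whereas the printed Hspd1 window lies inside the gene. RefSeq windows were on hand for 7 of the 10 members, with none for Hsp90aa1, Hsp90ab1 and Hspa8. Of these 7 genes, 6 held a motif of 2 units in at least 1 window and 2 (Hsph1 and Hspd1) held one of 3 units, against 17.0% and 0.662% of all 27025 genes with a window (15.1% and 0.603% of the 32851 windows). The motif of 3 units in Hsph1 lay after the start in both of its windows. Dnajb1 held no motif in its windows. A match to these letters is a description of the window and was not read as a binding site.

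The inducible HSP70 genes differed most between cell types. Hspa1a was highest in monocytes, at 10811 CPM under vehicle and 8404 CPM under ENZ. Macrophages followed with 5922 and 2925 CPM, and T cells with 3605 and 2782 CPM. Neutrophils had 2555 and 2956 CPM, DC 3850 and 1337 CPM, and NK cells 1840 and 1586 CPM. The immune classes from macrophages to NK cells overlapped with their neighbours in that order when both libraries were considered, whereas monocytes stood above all others in both. Fibroblasts had 519 and 279 CPM and cancer cells had the lowest level, 189 CPM under vehicle and 81.4 CPM under ENZ. The highest class was 57.3 times under vehicle and 103 times under ENZ.

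Hspa1b had the same order of classes as Hspa1a under vehicle, with macrophages and neutrophils exchanged under ENZ, from 5076 and 4442 CPM in monocytes to 157 and 93.9 CPM in cancer cells, a difference of 32.4 times and 47.3 times. The quotient of Hspa1a to Hspa1b UMIs was lower in cancer cells, at 1.21 under vehicle and 0.867 (95% interval 0.825 to 0.911) under ENZ, than in monocytes, at 2.13 (2.09 to 2.17) and 1.89 (1.86 to 1.93). All intervals here cover counting error only, since they come from 1 library per condition.

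The cochaperones of HSP70 followed the same split in part. Hsph1, the HSP110 protein that exchanges nucleotide on HSP70, was lowest in cancer cells, with 165 CPM under vehicle and 113 CPM under ENZ. It was highest in DC in the control (2259 CPM) and in T cells in the ENZ library (2082 CPM), 13.7 and 18.4 times the cancer cell level. Dnaja1, a J-domain protein that passes clients to HSP70, was also lowest in cancer cells (388 and 371 CPM) and highest in T cells (1324 and 1306 CPM), a narrower span of 3.41 and 3.52 times. Dnajb1, another J-domain partner of HSP70, followed the split less clearly. It ranged from 130 CPM in neutrophils to 324 CPM in DC in the control. In the ENZ library it was lowest in cancer cells and highest in T cells (286 CPM), a span of 3.34 times. Cancer cells (142 and 85.7 CPM) overlapped with both monocytes and neutrophils.

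Hspb1, a small heat shock protein known in epithelial and muscle cells, was highest in the 2 classes where Hspa1a was lowest. Fibroblasts had 487 CPM under vehicle and 336 CPM under ENZ, and cancer cells 270 and 178 CPM. NK cells had 107 and 171 CPM, macrophages 139 and 82.7 CPM, T cells 121 and 89.1 CPM, DC 139 and 42.0 CPM, monocytes 83.9 and 70.0 CPM, and neutrophils 108 and 32.2 CPM. Fibroblasts were above cancer cells in both libraries. Under ENZ the intervals of cancer cells (173 to 182 CPM) and NK cells (151 to 193 CPM) overlapped, and so did the levels of the 5 pairs of neighbours among immune classes. Over the 16 class profiles, Hspb1 had a Pearson correlation of -0.47 with the mean of the inducible members, whereas Hspa1a, Hspa1b, Hsph1, Hsp90aa1 and Dnaja1 were between 0.87 and 0.96 and Dnajb1 was at 0.55. The mean includes each member itself, and the profiles of a library share its depth and its free RNA.

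The HSP90 pair differed by cell type. Hsp90ab1, the constitutive HSP90, was highest in cancer cells at 4869 CPM under vehicle and 4780 CPM under ENZ, followed by T cells (3449 and 3396 CPM) and NK cells (3131 and 3049 CPM). Fibroblasts (2457 and 2191 CPM), DC (2363 and 2112 CPM) and macrophages (2228 and 1876 CPM) overlapped as neighbours, as did macrophages and monocytes (1790 and 1902 CPM), while neutrophils were lowest with 1048 and 710 CPM. Hsp90aa1, the inducible HSP90, was highest in T cells (2634 and 2852 CPM), which were high for both, and lowest in fibroblasts (505 and 477 CPM) and cancer cells (628 and 521 CPM). The quotient of Hsp90aa1 to Hsp90ab1 UMIs was therefore 0.129 (0.127 to 0.131) in control cancer cells and 0.109 (0.107 to 0.111) in ENZ cancer cells. In fibroblasts it was 0.206 and 0.218, in NK cells 0.538 and 0.642, in T cells 0.764 and 0.840, in macrophages 0.781 and 0.758, in DC 0.766 and 0.477, in monocytes 0.980 and 1.04, and in neutrophils 1.51 and 2.42. The quotient is compared between classes, and its size says nothing of the 2 proteins.

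The other constitutive members varied less or in another order. Hspa8, the constitutive HSP70 that works in protein folding and clathrin uncoating, had the narrowest span of the 10 members in both libraries, from 1099 CPM in fibroblasts to 2217 CPM in monocytes in the control (2.02 times) and from 1015 CPM in neutrophils to 2292 CPM in monocytes in the ENZ library (2.26 times). Hspd1, the mitochondrial chaperonin HSP60, was highest in T cells (688 and 919 CPM) and NK cells (517 and 643 CPM) and lowest in neutrophils (128 and 86.8 CPM).

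**Figure D1:**
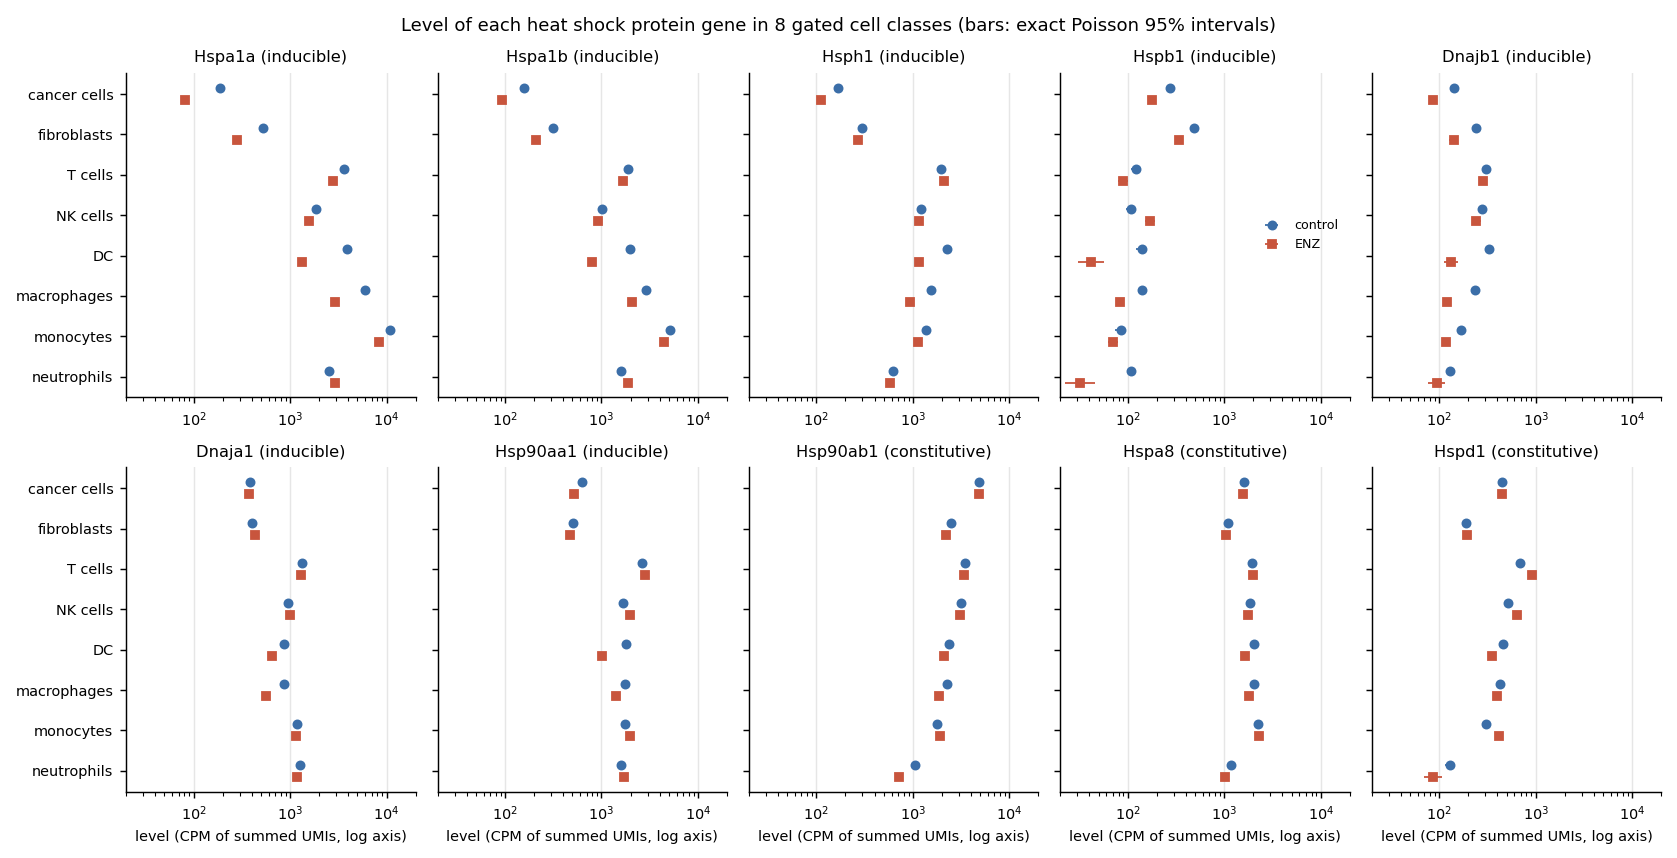
Level of each of the 10 members (CPM of summed UMIs, log axis) in 8 gated classes, with the control library as circles, the ENZ library as squares and exact Poisson 95% intervals as bars. Hspa1a spans from 189 CPM in cancer cells to 10811 CPM in monocytes in the control, Hspa8 only from 1099 to 2217 CPM, and Hspb1 is highest in fibroblasts and cancer cells, where Hspa1a is lowest.

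These spans were set beside those of all 6302 genes with at least 50 CPM in any class, after adding 10 CPM to each level. Between its highest and lowest class, the median gene spanned 1.88 on the log2 scale under vehicle and 2.14 under ENZ. Hspa1a spanned 5.77 and 6.52, and 1.35% and 0.730% of genes spanned more. Hspa1b was exceeded by 3.19% and 2.63% of genes, and Hsph1 by 10.6% and 8.97%. At the other end, 87.6% and 86.1% of genes spanned more than Hspa8, and 77.9% and 69.7% more than Dnajb1. The inducible members thus lay at both ends of this scale.

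Summed over members, the split was between immune cells on one side and cancer cells and fibroblasts on the other. In cancer cells the 7 inducible members summed to 1940 CPM under vehicle and 1444 CPM under ENZ, and in fibroblasts to 2762 and 2144 CPM. In the immune classes the sum ran from 7094 CPM (NK cells) to 20441 CPM (monocytes) in the control, and from 5117 CPM (DC) to 17292 CPM (monocytes) in the ENZ library. The 3 constitutive members had their highest sum in cancer cells (6934 and 6777 CPM) and their lowest in neutrophils (2336 and 1811 CPM). The quotient of the inducible to the constitutive sum was 0.280 and 0.213 in cancer cells, 0.738 and 0.626 in fibroblasts, and above 1 in every immune class of both libraries.

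**Figure D2:**
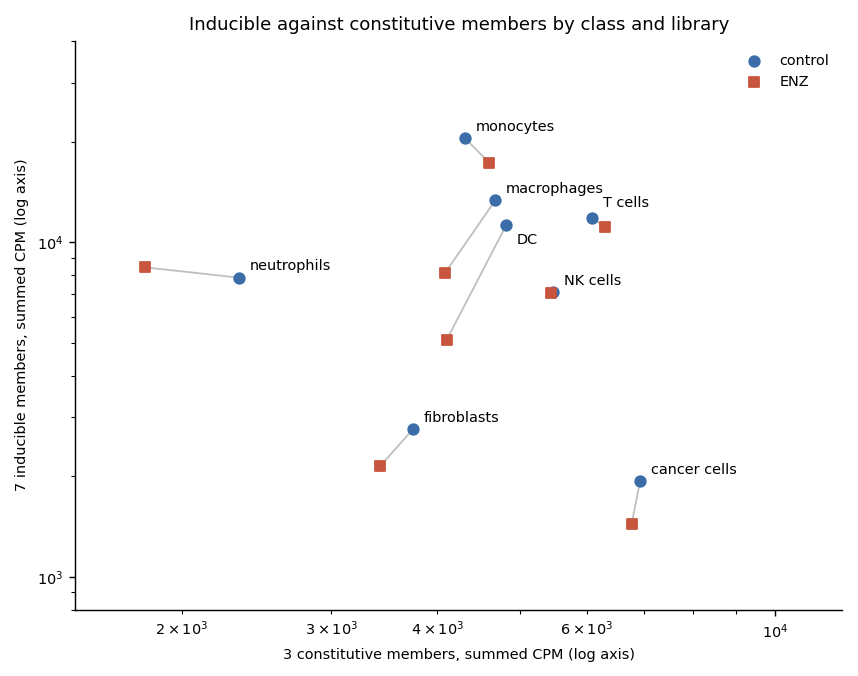
Summed CPM of the 7 inducible members (vertical, log axis) against that of the 3 constitutive members (horizontal, log axis), with a grey line joining the control library (circle) and the ENZ library (square) of each class. Cancer cells lie at the lower right (1940 against 6934 CPM in the control) and monocytes at the top (20441 against 4314 CPM).

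Free RNA bears on the low levels. In barcodes with at most 100 UMIs, which hold mostly RNA released into the suspension, Hspa1a stood at 2531 CPM (2481 to 2582) in the control and 1467 CPM (1428 to 1507) in the ENZ library, far above its level in cancer cells. The share of free RNA in a class was estimated from genes that should be foreign to it, S100a8 and S100a9 for cancer cells and fibroblasts, and Krt8 and Krt18 for immune cells. It came to 3.89% in control and 3.28% in ENZ cancer cells, and at that share free RNA would supply 52.2% and 59.1% of the Hspa1a level and 43.9% and 40.6% of the Hspa1b level there. In monocytes the same estimate gave 1.40% and 1.09% of the Hspa1a level. For Hspb1 the relation was turned around, with 5.25% and 4.99% in cancer cells but 87.6% and 66.9% in neutrophils, 22.3% and 105% in DC, and 60.3% and 21.0% in NK cells. The Hspa1a level of cancer cells and the Hspb1 level of immune cells are therefore upper limits of what those cells held. The estimate also counts RNA from cells caught together with another, and none of the 8 classes is known to lack the members.

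The ENZ library was then compared with the control class by class, on the fold between the 2 levels. Over all 80 pairs of a class and a member, 18 were lower in the ENZ library by at least 1.5 times, and all 18 were among the 56 pairs of inducible members. None of the 24 pairs of constitutive members was lower by that much, although Hsp90ab1 and Hspd1 in neutrophils came close at 0.677 and 0.679 times. Hspd1 in neutrophils was past that fold in 2 alternatives, at a log2 ratio of -0.63 with at least 2000 UMIs per cell and -0.65 with a looser gate, and it was 0.19 with free RNA subtracted. In the other direction, 1 pair was higher by at least 1.5 times, Hspb1 in NK cells.

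Cancer cells had 4 members lower (Hspa1a, Hspa1b, Hspb1 and Dnajb1), where 0.95% of the 3579 genes at 50 CPM or more were lower by as much. Hspb1 there was at -0.61 on the log2 scale and no longer past 1.5 times with CPM averaged over cells (-0.55). Macrophages had 5 (Hspa1a, Hsph1, Hspb1, Dnajb1 and Dnaja1) beside 4.13% of genes. With CPM averaged over cells, Hspb1 (-0.74 to -0.37 on the log2 scale) and Dnaja1 (-0.61 to -0.57) in macrophages were no longer past it. DC had 6, every inducible member but Dnaja1, beside 5.14% of genes. Fibroblasts had 2 (Hspa1a and Dnajb1) beside 3.6%, and neutrophils 1 (Hspb1) beside 13%. T cells, NK cells and monocytes had no member lower by 1.5 times, beside 6.02%, 3.99% and 3.47% of genes. The share of genes higher by at least 1.5 times was 4.64% in NK cells, where Hspb1 was the member concerned. In the other classes, where no member was higher, it was 0.391% in cancer cells, 5.07% in T cells, 6.63% in macrophages, 5.46% in monocytes, 6.87% in neutrophils, 12% in DC and 4.37% in fibroblasts.

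The median log2 ratio of ENZ over control for the inducible members was -0.61 in cancer cells, -1.30 in DC, -0.72 in macrophages and -0.53 in fibroblasts. It was -0.26 in monocytes, -0.10 in neutrophils, and -0.08 in both T cells and NK cells. For the constitutive members the median was -0.03 in cancer cells, -0.29 in DC, -0.16 in macrophages, -0.08 in fibroblasts, 0.09 in monocytes, 0.03 in T cells, -0.04 in NK cells and -0.56 in neutrophils. The median of all genes lay between 0.00 (neutrophils) and 0.11 (macrophages). With an estimate of free RNA subtracted, the fibroblast median of the inducible members turned from -0.53 to 0.09. The neutrophil median of the constitutive members turned positive as well.

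In DC, the class with the most members lower, Hspa1a was 3850 CPM under vehicle and 1337 CPM under ENZ, 0.347 times (0.328 to 0.368). Dnajb1 was at 0.406 times (0.336 to 0.489), Hspa1b at 0.401 times (0.372 to 0.432) and Hsp90aa1 at 0.556 times (0.519 to 0.596). The DC gates of the 2 libraries also differed in their markers. The 11 DC markers summed to 2358 CPM under vehicle and 3612 CPM under ENZ, led by the chemokine Ccl22 at 476 and 1042 CPM, and the 10 neutrophil markers summed to 607 and 243 CPM there, led by Il1r2 at 238 and 185 CPM. The 10 macrophage markers summed to 497 and 242 CPM, led by Apoe at 277 and 108 CPM. The 13 T cell markers summed to 55.6 and 20.5 CPM, led by Trbc1 at 13.9 and 0.932 CPM, and the 9 NK cell markers to 65.3 and 19.6 CPM, led by Gzma at 39.6 and 0.932 CPM. The 10 cancer markers were higher there, at 113 and 204 CPM in sum and led by Krt8 at 27.3 and 80.2 CPM, and the estimated share of free RNA was 8.49% and 16.3%. The 9 monocyte markers summed to 544 and 504 CPM. The part of these differences in the lower Hspa1a was not tested. Within DC of the lowest, middle and highest tertile of UMIs, Hspa1a was 2691, 4883 and 3552 CPM in the control and 1003, 1871 and 1150 CPM in the ENZ library. The ENZ level was thus lower in each tertile, but tertiles were set within each library and not matched in depth.

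In macrophages, Hspa1a was 0.494 times (0.485 to 0.503) and Dnajb1 0.509 times (0.465 to 0.556) the control level, whereas Hspa8 was at 0.895 times (0.873 to 0.917). Marker levels of the macrophage class differed between libraries too. The 10 macrophage markers summed to 14583 CPM under vehicle and 11954 CPM under ENZ, led by Apoe at 7608 and 5004 CPM, and the 10 neutrophil markers to 1289.6 and 839 CPM, led by S100a9 at 417 and 140.2 CPM. The 9 monocyte markers summed to 1027 and 1604 CPM, with 3 of them lower, and were led by F13a1 at 236 and 585 CPM, which was itself highest in macrophages. The part of these markers in the macrophage levels was not tested. Hspa1a in monocytes was at 0.777 times (0.766 to 0.789), T cells were at 0.772 times (0.750 to 0.794) and NK cells at 0.862 times (0.822 to 0.903), while neutrophils were at 1.16 times (1.11 to 1.21). The 10 macrophage markers were lower in the T cell gate, with sums of 666 and 142 CPM led by Apoe at 351 and 71.1 CPM, and in the NK cell gate, with 328 and 158 CPM led by Apoe at 176 and 78.1 CPM. The 10 neutrophil markers in the NK cell gate summed to 329 and 137 CPM, led by S100a9 at 129 and 37.5 CPM. In the monocyte gate the 10 neutrophil markers were higher, at 1036 and 1612 CPM, led by Il1r2 at 373 and 434 CPM, with S100a8 at 124 and 418 CPM. Their part in the Hspa1a levels was not tested.

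In cancer cells, Hspa1a was 189 CPM under vehicle and 81.4 CPM under ENZ, 0.431 times (0.412 to 0.451), and Hspa1a in free RNA was at 0.580 times (0.560 to 0.599). With free RNA subtracted, the Hspa1a level was 94.0 CPM under vehicle and 34.5 CPM under ENZ. The 10% of cells with most Hspa1a UMIs held 61.9% of them under vehicle and 45.8% under ENZ, and the median cell was at 90.2 and 53.8 CPM. Markers of classes with higher Hspa1a differed in both directions in the cancer gate. The 10 macrophage markers summed to 140.0 and 90.8 CPM, with 7 lower by at least 1.5 times and Mertk leading at 50.3 and 48.3 CPM, and the 10 neutrophil markers to 247 and 178 CPM, with 8 lower by as much and Slpi leading at 122 and 101 CPM. The 13 T cell markers summed to 10.6 and 6.96 CPM, led by Lck at 1.76 and 1.38 CPM. The 9 monocyte markers were at 67.1 and 71.6 CPM, the 9 NK cell markers at 76.4 and 87.5 CPM and the 11 DC markers at 169.5 and 170.7 CPM. Their part in the cancer cell levels was not tested. Dnajb1, for which free RNA supplied at most 6.20% of the cancer cell level, was at 0.605 times (0.577 to 0.634), and Hspb1, at most 5.25%, was at 0.657 times (0.636 to 0.680). Dnaja1 was at 0.956 times (0.932 to 0.980), Hsp90ab1 at 0.982 times (0.975 to 0.989) and Hspd1 at 0.998 times (0.975 to 1.02). The inducible members of cancer cells thus ranged from less than 0.5 times to almost level, while the constitutive ones were all within 5% of the control.

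In fibroblasts, Hspa1a was 0.538 times (0.490 to 0.591) the control level. By the estimate above, free RNA supplied 64.3% of the control and 14.8% of the ENZ level, and with it subtracted the log2 ratio turned from -0.89 to 0.20. That of Hspa1b turned from -0.58 to 0.96, and that of Hsph1 from -0.15 to 0.09. Dnajb1 in fibroblasts was 0.591 times (0.516 to 0.676), with a log2 ratio of -0.76 both before and after subtraction. Markers of other cells differed in both directions in the fibroblast gate. The 10 neutrophil markers summed to 399 and 119 CPM, led by S100a9 at 155 and 11.9 CPM, with Cxcr2 at 0 under ENZ. The 13 T cell markers summed to 44.1 and 8.10 CPM, led by Trac at 8.89 and 3.84 CPM, with Cd3e, Cd3g, Cd8a, Cd8b1 and Cd5 at 0 under ENZ, and the 5 mural cell markers to 453 and 157 CPM, led by Acta2 at 417 and 124 CPM. The 9 monocyte markers were higher, at 729 and 859 CPM and led by Plac8 at 438 and 423 CPM, as were the 10 macrophage markers, at 271 and 289 CPM and led by Apoe at 141 and 131 CPM. Their part in the fibroblast levels was not tested.

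Hspb1 gave the extremes in both directions at low counts. In neutrophils it was 108 CPM under vehicle and 32.2 CPM under ENZ, 0.297 times (0.202 to 0.426), on 348 and 33 UMIs. Among neutrophils with at least 2000 UMIs its log2 ratio was -0.51 in place of -1.75, and no longer past 1.5 times. In NK cells it was 107 and 171 CPM, 1.60 times (1.36 to 1.89), on 348 and 269 UMIs. The NK cell log2 ratio of 0.68 was 1.60 with free RNA subtracted, and under 1.5 times with a looser gate (0.42) or with CPM averaged over cells (0.55). After thinning to 1000 UMIs a cell, 8.27% of NK cells under vehicle and 8.03% under ENZ had an Hspb1 UMI (intervals 6.05 to 10.98 and 4.98 to 12.1). Without thinning these shares were 23.3% and 25.3%, at median depths of 4295 and 4333 UMIs. Krt8, which should be absent from NK cells, was found in 2.31% and 4.82% of them after thinning. Without thinning it was found in 9.23% and 18.1%.

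**Figure D3:**
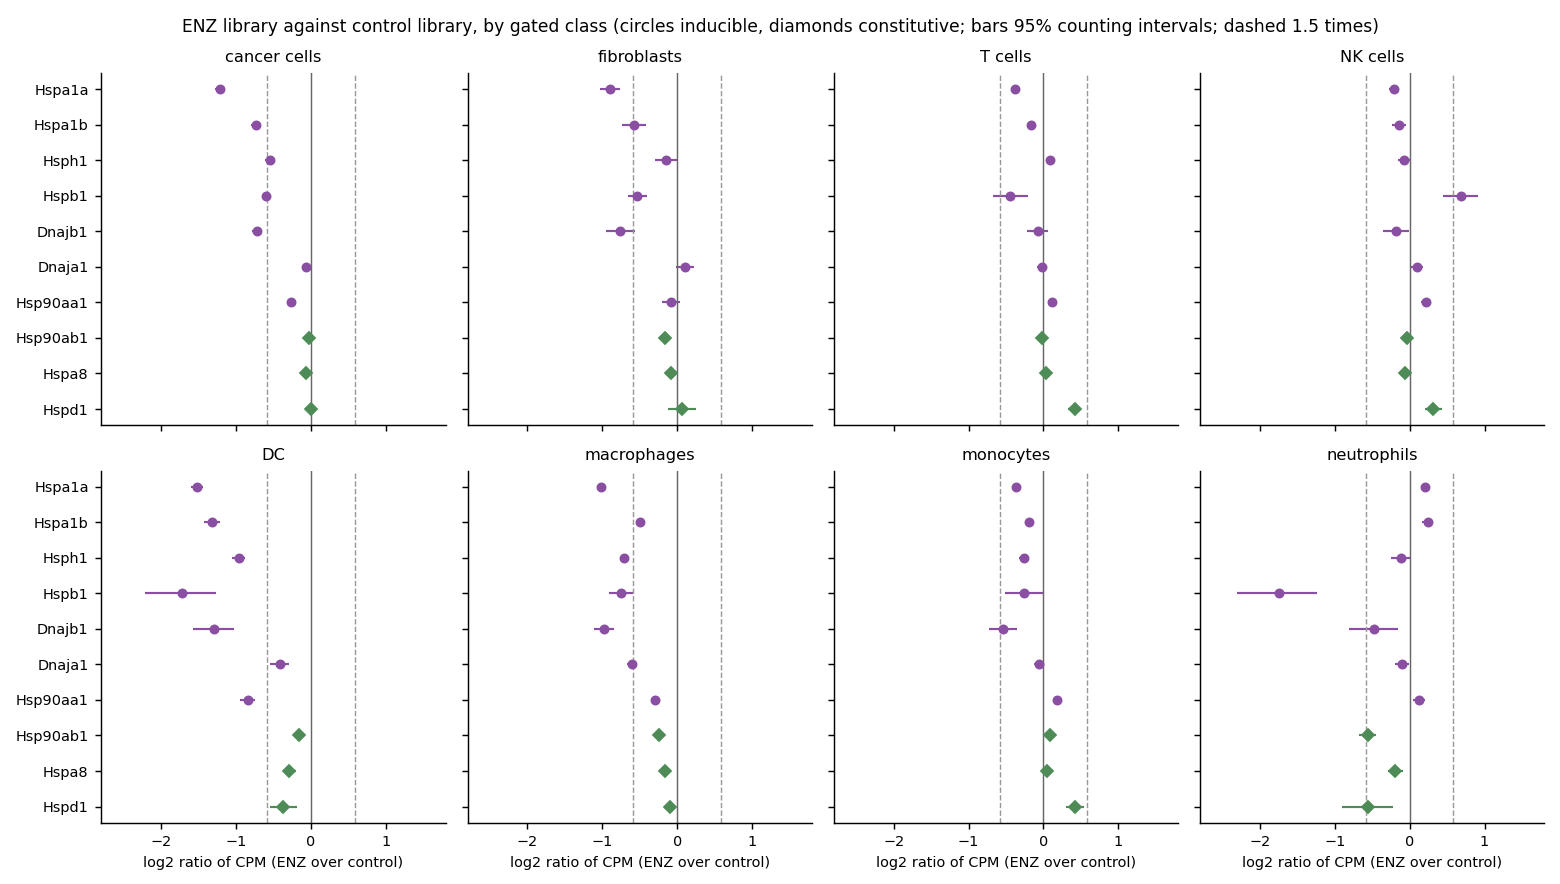
Log2 ratio of ENZ over control CPM for each member in 8 gated classes, with inducible members as circles, constitutive members as diamonds, 95% counting intervals as bars, a solid line at equal levels and dashed lines at 1.5 times. In DC, 6 inducible members lie left of the dashed line, in T cells none does, and Hspb1 in NK cells lies right of it.

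Hspd1 and Hsp90aa1 were higher in some classes by less than 1.5 times. Hspd1 was at 1.34 times (1.26 to 1.42) in T cells, 1.24 times (1.15 to 1.35) in NK cells and 1.34 times (1.23 to 1.45) in monocytes, while DC were at 0.775 times (0.685 to 0.875). Hsp90aa1 was at 1.16 times (1.11 to 1.21) in NK cells and 1.13 times (1.09 to 1.17) in monocytes. Whether these classes differ in their response was not tested, since each rests on 1 library per condition.

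Neutrophils were the only class in which the constitutive members had a median past -0.5. Their levels differed with depth. In the tertile with most UMIs, Hsp90ab1 was 1529 CPM under vehicle and 892 CPM under ENZ, whereas in the lowest tertile it was 418 and 532 CPM. Markers of other cells differed in both directions in the neutrophil gate. The 10 macrophage markers summed to 775 and 350 CPM, led by Apoe at 431 and 171 CPM. The 10 cancer markers summed to 239 and 93.6 CPM, led by Krt8 at 84.2 and 35.1 CPM. The 9 monocyte markers were higher, at 883 and 1218 CPM and led by Hp at 407 and 483 CPM. The endothelial markers (62.1 and 65.3 CPM) and the mural cell markers (23.3 and 27.3 CPM) were slightly higher. Without the 5% of cells with most UMIs, the log2 ratio of Hsp90ab1 was 0.24 in place of -0.56. The estimated share of free RNA in neutrophils was 26.0% and 7.95%. It would supply 67.3% and 33.3% of the Hsp90ab1 level and 69.3% and 35.8% of that of Hspd1. With it subtracted, the log2 ratios of Hsp90ab1 and Hspd1 turned positive, that of Hspd1 to 0.19, and so did the median. The part of these markers, of free RNA and of depth in the neutrophil levels was not tested.

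The share of cells with a UMI, read at a fixed depth of 1000 UMIs per cell, was also highest in monocytes and lowest in cancer cells for Hspa1a. Monocytes with an Hspa1a UMI made up 89.7% (87.0 to 92.0) under vehicle and 86.2% (83.6 to 88.5) under ENZ, against 14.5% (12.2 to 17.1) and 8.59% (7.02 to 10.4) of cancer cells. Without thinning these shares were 95.5% and 93.1% of monocytes at median depths of 4437 and 4895 UMIs, and 90.3% and 79.9% of cancer cells at 29375 and 28143 UMIs. S100a9, a neutrophil gene that cancer cells should lack, was found in 3.87% and 0.974% of cancer cells after thinning. DC with an Hspa1a UMI went from 79.1% (73.7 to 83.8) to 44.3% (36.2 to 52.7) and macrophages from 84.7% (82.4 to 86.7) to 67.4% (63.6 to 71.0). For Hspa8 the share was between 73.2% and 84.4% in every immune class but neutrophils, and 75.9% and 76.8% in cancer cells.

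**Figure D4:**
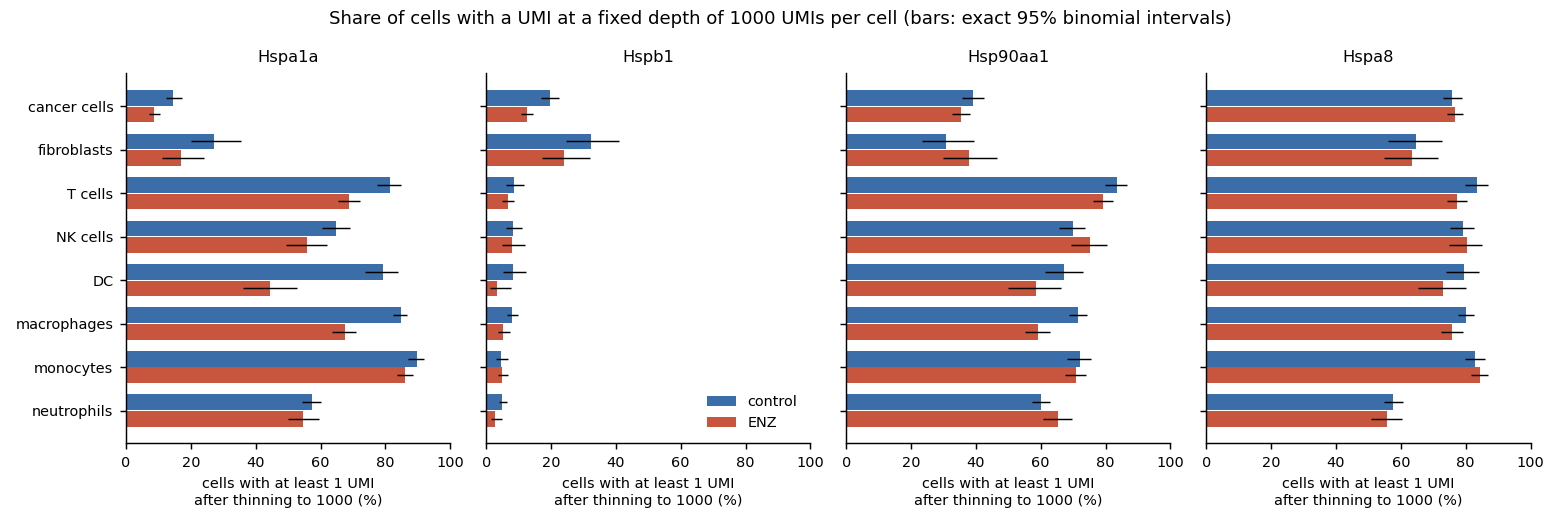
Share of cells with at least 1 UMI of Hspa1a, Hspb1, Hsp90aa1 and Hspa8 (horizontal, percent) in 8 classes after thinning each cell to 1000 UMIs, with the control library in blue, the ENZ library in red and exact 95% binomial intervals as black lines. Hspa1a is in 14.5% of control cancer cells and 89.7% of control monocytes, while Hspa8 is in 75.9% and 82.9%.

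Within a class, cells differed widely in Hspa1a. In control macrophages the 10th percentile of cells was at 388 CPM, the median at 5744 CPM and the 90th percentile at 12445 CPM, and in ENZ macrophages these were 65.5, 1519 and 9445 CPM. The median cell therefore differed more between libraries than the 90th percentile did. Across macrophages, Hspa1a and Hspa1b had a Spearman correlation of 0.83 over 1109 control cells and 0.86 over 644 ENZ cells, Hspa1a and Hsph1 of 0.61 and 0.76, and Hspa1a and the constitutive Hsp90ab1 of 0.33 and 0.32. In cancer cells Hspa1a and Hspa1b reached 0.20 and 0.14 over 827 and 1129 cells, too weak in such sparse counts to be read as a finding. Cells of a class share a library, and both values are divided by the same total of UMIs.

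The genes most like the members were found over the 16 profiles of class and library, by Pearson correlation of log2(CPM + 10) with the mean of the group. For the inducible members these were Crlf2 (0.94), a cytokine receptor subunit, Cish (0.93), an inhibitor of cytokine signalling, the noncoding RNA Gm11290 (0.93), Laptm5 (0.93), a lysosomal protein of blood cells, and Cotl1 (0.92), an actin-binding protein. The first 4 were highest in control monocytes, the class in which Hspa1a was highest too. For the constitutive members they were Snrpg (0.95), a splicing factor subunit, the ribosomal protein genes Rplp2 (0.95) and Rps26 (0.94), and the RNA-binding protein Elavl1 (0.94). These 4 were lowest in neutrophils.

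Other chaperone genes were read from lists set beside the members. The 23 other HSF1 targets and cochaperones of HSP90 and HSP70 had 19 genes at 50 CPM or more in cancer cells, of which 0 were lower or higher by at least 1.5 times, with a median log2 ratio of 0.00. Hikeshi, the nuclear import carrier of HSP70, was lowest at 0.795 times, followed by Bag3 (0.848 times), a nucleotide exchange factor, and Hspe1 (0.851 times), the partner of Hspd1. Fkbp5, an HSP90 cochaperone and known androgen receptor target, was highest at 1.27 times (1.22 to 1.32), then Hspa4 at 1.15 times and Hspa4l at 1.13 times. Fkbp5 was also higher in other classes, at 2.93 times (2.60 to 3.30) in macrophages, 2.43 times (1.74 to 3.40) in DC, 2.01 times (1.61 to 2.53) in monocytes, 1.95 times (1.62 to 2.34) in T cells and 1.70 times (1.46 to 1.99) in fibroblasts. In macrophages 2 of 20 genes of the list were lower and 1 higher, beside 4.13% and 6.63% of all genes. In DC 4 of 19 were lower and 2 higher, beside 5.14% and 12%, and in neutrophils 4 of 13 were lower and 0 higher, beside 13% and 6.87%. The median was -0.18 in macrophages, -0.32 in DC and -0.23 in neutrophils.

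The 8 subunits of TRiC, the cytosolic chaperonin, had 0 members past 1.5 times in cancer cells and a median of -0.05, from Cct7 at 0.870 times to Tcp1 at 1.03 times. In neutrophils 3 of 8 were lower, beside 13% of all genes, with a median of -0.56. The 14 chaperones of the endoplasmic reticulum and mitochondria had 10 genes at 50 CPM in cancer cells, with none past 1.5 times and a median of 0.02. Of these, Hspa5, the main HSP70 of the endoplasmic reticulum, was at 0.968 times, Grpel1 lowest at 0.887 times and Canx highest at 1.22 times. This list had a median of 0.29 in monocytes, 0.14 in macrophages and 0.13 in NK cells. In these classes, as in cancer cells, its sign was opposite to that of the inducible members. The list median was negative, as was theirs, in T cells (-0.19), neutrophils (-0.20), DC (-0.16) and fibroblasts (-0.11). The heat shock factors Hsf1 and Hsf2 summed to under 50 CPM in all classes but DC, where they had 53.0 and 83.0 CPM.

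Immediate early genes, which respond quickly to stress and handling, were lower in cancer cells under ENZ and at a like sum in macrophages. In cancer cells 7 of 12 were lower by at least 1.5 times, beside 0.95% of all genes, with sums of 6955 and 4341 CPM and Ier3 most abundant (1599 and 874 CPM), and Dusp1 was lowest at 0.453 times, then Fos at 0.518 times. In macrophages 0 of 12 were lower beside 4.13% of all genes, with a sum of 3810 and 3876 CPM, and in DC 2 of 12 beside 5.14%, with 2584 and 2503 CPM. Junb led the list in both, at 684 and 837 CPM in macrophages and 487 and 564 CPM in DC. In T cells 5 of 12 were lower beside 6.02% of all genes, in monocytes 3 beside 3.47%, and in NK cells 2 beside 3.99%. Neutrophils had 1 beside 13%, and fibroblasts 1 beside 3.6%. None of the 12 was at 0 in any class. Of 4 genes whose reads come in part from ribosomal RNA, 3 were higher by at least 1.5 times in each class, and AY036118 was not, at 1.46 times in cancer cells and 0.897 times in macrophages. The sum of the 4 was 10366 and 29080 CPM in cancer cells and 30862 and 89853 CPM in macrophages, led by Gm42418 at 7789 and 24046 CPM in cancer cells. The part of either list in the levels of the members was not tested.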

How the data were processed

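Gene expression was measured by droplet scRNA-seq in 1 control and 1 ENZ tumor. The count tables deposited by the authors hold unfiltered UMIs for each gene in every barcode, with no normalization. The file headers name Cell Ranger 7.2.0, while the submitters' processing notes name Cell Ranger 2.1.1 and mm10. Positions came from GENCODE M21 (GRCm38), which holds 32235 of the 32285 identifiers.

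From these counts, barcodes with at least 1000 UMIs and at most 20% mitochondrial UMIs were gated. For each class, markers were scored as the mean standardised log2(1 + UMIs per 10000), and a cell took the class with the highest score if it reached 1 (0.4 for cancer cells), led by 0.3 and had at least 3 markers detected. This scoring rule was settled after marker levels had been seen. Cells whose highest score reached its limit but led the next class by less than 0.3 (786 control, 796 ENZ) were left out. The next class did not have to reach its own limit, and no doublet caller was run. In the control and ENZ libraries, 1474 and 1481 cells lay within 0.1 of the limit. UMIs were summed by class in each library and scaled to CPM. Intervals (95%, counting error only) were exact Poisson for levels, conditional binomial for ratios and Clopper-Pearson for shares. Members and lists were chosen with earlier results of these data known. Named were all 10 members, the 3 highest and 3 lowest of each list in cancer cells, and the 5 genes most like each group, of which 1 is not reported here. Genes entered a comparison at 50 CPM in either library. No class was renamed. The software was scipy 1.17.1, pandas 2.3.3 and numpy 2.4.6 under Python 3.11.15. The ratio intervals, the fold calls and the gate were tried on simulated counts with counting error only. For the gate, these were drawn from the gated classes themselves. The other steps were not simulated. The paper's own cell annotation was not used here.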

Additional observations from a re-analysis of the deposited data

Results flagged for a closer look

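In the ENZ library, 6 inducible members were lower by at least 1.5 times in at least 1 class and higher, by any amount, in another. The share of all genes that met this rule was not counted. In single classes, between 0.95% (cancer cells) and 13% (neutrophils) of genes were lower by as much. The difference between the classes was not tested, since each class has 1 library per condition. The log2 ratio of Hspa1a was -1.53 in DC and 0.21 in neutrophils. That of Hspa1b was -1.32 in DC and 0.24 in neutrophils. The neutrophil values ranged from -0.08 to 0.27 for Hspa1a and from -0.0043 to 0.35 for Hspa1b over the alternatives. Hsph1 had -0.97 in DC and 0.08 in T cells, where it ranged from -0.012 to 0.10. Hspb1 had -1.75 in neutrophils and 0.68 in NK cells, and the latter ranged from 0.42 to 1.60 over the alternatives. In the ENZ library free RNA would supply 66.9% of the Hspb1 level of neutrophils and 21.0% of that of NK cells. Dnaja1 had -0.61 in macrophages and 0.09 in NK cells. Hsp90aa1 had -0.85 in DC and 0.22 in NK cells.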

How the results depend on the processing

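The 18 pairs lower by at least 1.5 times became 17 to 21 under 11 of the 12 alternatives, and 31 when an ENZ level of at most 0.8 times the control counted. The 17 came with free RNA subtracted and included Hspb1 in DC, of which nothing was left in the ENZ library (16 without it). Of the 18 lower pairs and the 1 higher pair, 15 stayed past 1.5 times in their direction with averaged CPM, and 17 both without the 5% of cells with most UMIs and with a looser gate. The pairs no longer past it were Hspb1 in cancer cells and macrophages (without the deepest 5% and with averaged CPM), Dnaja1 in macrophages and Hspb1 in NK cells (with averaged CPM and the looser gate), and Hspb1 in neutrophils (at 2000 UMIs). Of the 18 with a value after free RNA was subtracted, 17 did. The median log2 ratio of the inducible members in cancer cells, -0.61, was -0.69 when CPM was averaged over cells, -0.66 with median-of-ratios scaling and -0.67 with a looser gate. That of the constitutive members, -0.027, was -0.044 without the 5% of cells with most UMIs, -0.0057 when CPM was averaged over cells and -0.084 with median-of-ratios scaling. The median over the 8 classes, -0.40, was -0.15 with free RNA subtracted. The span of the summed inducible members between classes, 3.40 on the log2 scale, was 3.50 without the deepest 5%, 3.46 with averaged CPM, 3.61 with free RNA subtracted, 3.33 with mitochondrial, ribosomal and rRNA-like genes out of the denominator, 3.62 with median-of-ratios scaling, 3.43 with the looser gate, and 3.47 with ungated barcodes added to the cancer cells. That of the constitutive members, 1.57, was less steady, and in the same order was 2.13, 1.98, 2.25, 1.81, 1.07, 1.36 and 1.46, with 1.51 at 500 UMIs, 1.11 at 2000 UMIs and 1.61 at 10% mitochondrial UMIs. Hspa1a in fibroblasts turned from -0.89 to 0.20 with free RNA subtracted, and Hspa1b there from -0.58 to 0.96. The cause was not tested. The looser gate (limits of 0.8 and 0.3, margin 0.2) and the added barcodes (2022 control and 2348 ENZ with at least 5000 UMIs and no Ptprc or Tyrobp UMI) were chosen after seeing the data.

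No paired analysis was possible because there was a single mouse in either arm. Hspb1 in neutrophils, -1.75, ranged from -1.77 to -0.51 over the alternatives. Depth limits Hspb1 in neutrophils and DC, where the ENZ library had 33 and 45 UMIs.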

Other observations

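In barcodes that no gate took, Hspa1a stood at 1217 CPM under vehicle and 667 CPM under ENZ, Hspb1 at 300.1 and 206 CPM, Dnajb1 at 168 and 105 CPM, and Hsp90ab1 at 4096 and 4116 CPM. Their median depth was 8205 and 11596 UMIs.

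Hspa1a was not tied to the mitochondrial share of the cells in 1 direction. In control cancer cells it was 234, 181 and 146 CPM from the lowest to the highest tertile of mitochondrial UMIs, and in ENZ cancer cells 73.7, 84.2 and 85.3 CPM. In neutrophils it was 1796, 2366 and 3042 CPM in the control and 1896, 2975 and 3713 CPM in the ENZ library, higher with each tertile in both. These are levels of pooled cells and were not tested.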
